A study of Rattus norvegicus with 6 samples.

Results

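Megakaryocyte and platelet genes were examined in rat marrow cells that carry c-kit, with and without phenylhydrazine. The set was chosen by gene symbol, not by a rule on measured values, but with earlier results of these data known. It holds 10 genes: Pf4, Ppbp, Itga2b, Itgb3, Gp1bb, Gp9, Vwf, Thbs1, Plek and Tubb1. Of the 10, 8 were listed under their symbol among the 17172 genes and loci of the series, and 7 passed the filter on low counts and were tested among 13547. Gp1bb was listed but not tested. Itga2b and Tubb1 were not found by symbol. The authors numbered some loci as additional to the annotated genes and matched them to proteins, and 3 of these loci carry a match to integrin alpha-IIb (2 loci) or to tubulin beta-1 (1 locus). Their values are given as those of loci, which were picked after the data had been seen.

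The PHZ group was 3 ACI rats aged 6-8 weeks that received phenylhydrazine (PHZ), a compound that destroys red cells, at 100 mg/kg into the peritoneum. The PBS group was 3 ACI rats of the same age that received PBS in the same way. Each group was labelled as 2 females and 1 male, and marrow of the hind legs was taken 36 h after the injection. Cells carrying c-kit, the receptor for stem cell factor, were captured with a biotinylated antibody and streptavidin particles, and poly(A) RNA of each rat was sequenced as 1 library. Libraries held 13196249 to 19492793 expected counts. Kit itself was present in every library, at 33.9, 55.1 and 71.6 CPM (expected counts scaled to the depth of the library) in PHZ cells, against 54.9, 63.9 and 51.7 CPM in PBS cells. Transcripts of the Y-linked genes Ddx3y and Eif2s3y went against the sex label in 3 libraries, PHZ replicate 3, PBS replicate 1 and PBS replicate 2. PBS replicate 1 also stood apart in marrow stromal genes. The 12 stromal markers summed to 11.5 to 16.2 CPM in PHZ libraries, against 539 CPM in PBS replicate 1 and 22.7 to 25.2 CPM in the other PBS libraries.

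Megakaryocytes are the large polyploid marrow cells that shed platelets. They arise from progenitors that also give rise to red cells, and they use the transcription factors GATA1, FLI1, NFE2, RUNX1 and GFI1B. Platelets bind von Willebrand factor through the GPIb-IX-V complex and fibrinogen through integrin alphaIIb-beta3, and they carry chemokines and adhesive proteins in alpha granules. The 10 genes differ in how closely they are tied to this lineage. Endothelial cells also make von Willebrand factor, many cell types make thrombospondin-1, and leukocytes also make pleckstrin. In RNA from whole sorted populations, fewer cells of a type and less RNA per cell cannot be told apart.

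Promoter sequences of the set are shown because regulators that bind GATA and ETS motifs, Gata1 and Fli1, moved in opposite directions in these cells. RefSeq promoter windows of assembly GRCr8, taken as the 250 bases before the start of the gene, were matched for 6 of the 10 genes (Ppbp, Itga2b, Gp1bb, Gp9, Thbs1 and Tubb1). Both strands were searched for a GATA motif (AGATAA or TGATAA) and an ETS motif (CCGGAA or CAGGAA), and no 2 matches overlapped. The GATA motif was found in 1 of the 6 windows, against 16.6% of 27457 genes with a window. The ETS motif was found in 3 of the 6, against 34.9% of those genes. The windows with a match are Itga2b at chr10:87925834-87926083 on the minus strand, Thbs1 at chr3:125510000-125510249 on the plus strand and Gp9 at chr4:121792592-121792841 on the plus strand. Each is printed in the direction of its gene, and capitals mark the matches, which on the opposite strand read as the reverse complement.
Itga2b: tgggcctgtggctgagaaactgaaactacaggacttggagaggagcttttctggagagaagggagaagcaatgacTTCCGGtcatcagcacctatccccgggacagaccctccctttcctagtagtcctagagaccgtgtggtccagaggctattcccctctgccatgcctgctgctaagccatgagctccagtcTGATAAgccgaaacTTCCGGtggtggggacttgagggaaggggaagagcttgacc
Thbs1: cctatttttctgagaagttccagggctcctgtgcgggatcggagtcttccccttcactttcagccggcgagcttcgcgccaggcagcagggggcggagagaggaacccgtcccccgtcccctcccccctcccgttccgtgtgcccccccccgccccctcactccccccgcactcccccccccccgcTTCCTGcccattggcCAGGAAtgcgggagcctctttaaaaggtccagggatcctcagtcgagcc
Gp9: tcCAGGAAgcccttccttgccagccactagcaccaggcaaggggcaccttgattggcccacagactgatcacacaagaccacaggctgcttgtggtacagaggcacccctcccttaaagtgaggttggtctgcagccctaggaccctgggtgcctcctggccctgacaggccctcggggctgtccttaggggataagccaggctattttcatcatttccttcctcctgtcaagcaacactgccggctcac
The Itga2b window holds TGATAA at 55 to 50 bases before the start and ETS matches at 175 to 170 and at 41 to 36 bases. The Thbs1 window holds ETS matches at 64 to 59 and at 49 to 44 bases before the start, and the Gp9 window holds 1 at 248 to 243 bases. A match is a run of letters in the window and shows no binding.

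Thbs1 and Plek fell in PHZ cells, and no gene of the set rose. All 7 tested genes had a lower estimate in PHZ cells (6 of 7 without PBS replicate 1), with a median log2 fold change of -0.56, against -0.04 over all tested genes, of which 52.4% had an estimate below 0. Genes were called at a Benjamini-Hochberg adjusted p under 0.05 in edgeR's quasi-likelihood test over all tested genes. By that rule 2 of the 7 were called, both lower in PHZ, against 13.2% of all tested genes in either direction (8.99% of all tested genes higher and 4.17% lower). All PHZ libraries were below all PBS libraries for 4 of the 7 (Gp9, Vwf, Thbs1 and Plek), as they were for 19.2% of all tested genes. Thbs1 was no longer called without PHZ replicate 2 (adjusted p = 0.062), PHZ replicate 3 (0.057), PBS replicate 2 (0.102) or PBS replicate 3 (0.118), and Plek without any 1 of the 6 libraries (0.071 to 0.163). The log2 fold changes in those fits were -0.65 to -0.61 for Thbs1 and -0.66 to -0.51 for Plek, and without PBS replicate 2 or PBS replicate 3 no gene of the series was called, although 3325 and 3291 had an unadjusted p under 0.05. Without the 3 libraries that go against their sex label, PHZ replicates 1 and 2 were set against PBS replicate 3 alone. The log2 fold changes were then -0.61 for Thbs1 and -0.71 for Plek, and calls cannot be read from so few libraries.

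**Figure D1:**
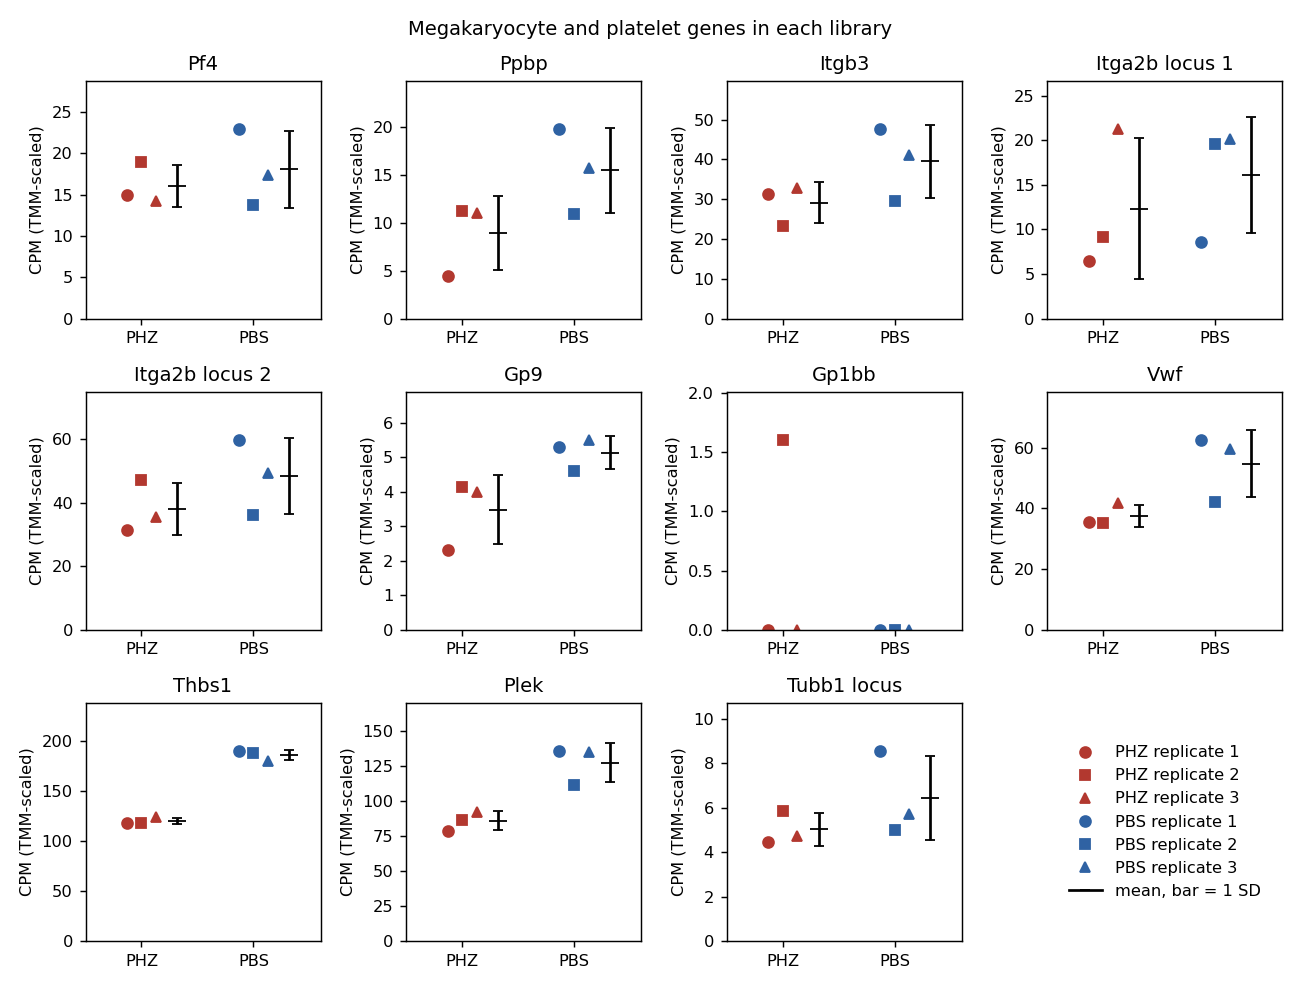
CPM of each gene or matched locus of the set in each library (points), with PHZ libraries left of PBS libraries, a bar for the mean and a line for the SD, and no bar for Gp1bb, which was listed in 1 library. The Thbs1 panel shows PHZ libraries at 118.2 to 123.8 CPM and PBS libraries at 180.3 to 190.4 CPM, and the Pf4 panel shows groups that overlap.

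Among the chemokines of the alpha granule, neither changed by the test. Pf4 encodes platelet factor 4, which binds heparin and other glycosaminoglycans, and Ppbp encodes the precursor of CXCL7, which attracts neutrophils. Their genes are neighbours in the RefSeq annotation. Pf4 had 14.9, 18.9 and 14.3 CPM in PHZ cells, against 23.0, 13.7 and 17.4 CPM in PBS cells. The groups overlapped: the highest value was in PBS replicate 1 and the lowest in PBS replicate 2. Its log2 fold change was -0.17 (SE 0.23, 95% interval -0.72 to 0.38, edgeR adjusted p = 0.634), and it was 0.05 without PBS replicate 1. Ppbp had 4.46, 11.18 and 11.03 CPM in PHZ cells, against 19.8, 10.9 and 15.7 CPM in PBS cells. PHZ replicate 1 was low, and the other PHZ libraries lay just above PBS replicate 2. The log2 fold change of Ppbp was -0.80 (SE 0.40, 95% interval -1.76 to 0.16, edgeR adjusted p = 0.208), and it was -0.47 without PHZ replicate 1. On the authors' FPKM scale, which divides by the reads of the library and the length of the gene, all PHZ values of Ppbp (16.3, 32.9 and 36.8) were below all PBS values (70.5, 38.3 and 50.6).

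The subunits of the fibrinogen receptor gave no call. Itgb3, the integrin beta-3 subunit, had 31.4, 23.4 and 32.8 CPM in PHZ cells, against 47.8, 29.6 and 41.1 CPM in PBS cells. PBS replicate 2 lay among the PHZ libraries. The log2 fold change was -0.44 (SE 0.22, 95% interval -0.97 to 0.09, edgeR adjusted p = 0.209), and it was -0.27 without PBS replicate 1. The alpha-IIb subunit was represented by the 2 additional loci, of 3827 and 3294 bases. The first had 6.51, 9.18 and 21.3 CPM in PHZ cells, against 8.64, 19.6 and 20.1 CPM in PBS cells, and the second had 31.5, 47.0 and 35.5 CPM, against 59.8, 36.0 and 49.4 CPM. Both overlapped between groups, and the library that was highest differed between them (PHZ replicate 3 for the first, PBS replicate 1 for the second). Their expected counts were not whole but added to whole numbers in each library (137.32 and 663.68 in PHZ replicate 1, for example). Reads were therefore divided between the 2 loci by the authors' estimate, and the separate values depend on that division. The log2 fold changes of the 2 loci were -0.39 (SE 0.53, edgeR adjusted p = 0.630) and -0.35 (SE 0.24, adjusted p = 0.331). Without PHZ replicate 1 the first was -0.08, without PHZ replicate 3 it was -1.04, and without PBS replicate 1 the second was -0.16.

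The GPIb-IX-V complex was measured through Gp9 and, in part, Gp1bb. Gp9, the small subunit needed for the complex to reach the cell surface, had 2.32, 4.12 and 3.98 CPM in PHZ cells, against 5.29, 4.60 and 5.50 CPM in PBS cells. All PHZ libraries were below all PBS libraries, at 49 to 66 counts a library in PHZ and 79 to 87 in PBS. The log2 fold change was -0.56 (SE 0.31, 95% interval -1.31 to 0.18, edgeR adjusted p = 0.246), and it was -0.33 without PHZ replicate 1. Gp1bb, which is disulfide-linked to the von Willebrand factor-binding subunit, was listed in PHZ replicate 2 only, with an expected count of 25.7 (1.57 FPKM), and in no PBS library. In the RefSeq annotation Gp1bb lies inside the gene model of Septin5 and shares its end, so an expected count divides reads between them by the authors' estimate. Septin5, a filament-forming GTPase also present in platelets, had 57.0, 100.0 and 97.2 CPM in PHZ cells, against 94.8, 174.5 and 139.1 CPM in PBS cells. Its log2 fold change was -0.68 (SE 0.30, edgeR adjusted p = 0.158), so the level of Gp1bb in these cells cannot be read from its own counts. Among the partners, Gp1ba, the subunit that binds von Willebrand factor, had 17.4, 33.8 and 33.7 CPM in PHZ cells, against 32.9, 30.5 and 38.0 CPM in PBS cells. PHZ replicate 1 was the low library, and the estimate of -0.26 (SE 0.27, edgeR adjusted p = 0.531) was 0.0043 without it. Gp5, the remaining subunit, had 7.49, 12.4 and 12.2 CPM in PHZ cells, against 16.0, 10.5 and 15.9 CPM in PBS cells (log2 fold change -0.40, SE 0.28, edgeR adjusted p = 0.337, and -0.19 without PHZ replicate 1).

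Of the adhesive proteins, Thbs1 fell in PHZ cells and Vwf did not pass the test. Vwf, which tethers platelets to exposed collagen, had 35.5, 35.2 and 41.8 CPM in PHZ cells, against 62.7, 42.0 and 59.5 CPM in PBS cells. PHZ replicate 3 and PBS replicate 2 nearly met, and on the FPKM scale the groups overlapped. The log2 fold change was -0.55 (SE 0.18, 95% interval -0.98 to -0.11), and it did not pass the adjusted threshold (edgeR adjusted p = 0.089), whereas DESeq2 called it (adjusted p = 0.037). DESeq2 was the only 1 of 18 alternatives to call Vwf. Without PBS replicate 1 the log2 fold change of Vwf was -0.43 (edgeR adjusted p = 0.172). Thbs1, the matricellular protein thrombospondin-1 of the alpha granule, had 118.2, 118.3 and 123.8 CPM in PHZ cells, against 190.4, 188.4 and 180.3 CPM in PBS cells. On the CPM scale the values lay close together within each group and the groups were far apart. On the FPKM scale they spread more widely, still without overlap (25.71, 19.55 and 24.36 in PHZ cells, against 39.99, 39.33 and 33.94 in PBS cells). Thbs1 averaged 120.1 ± 3.19 CPM in PHZ cells and 186.4 ± 5.34 CPM in PBS cells (SD, n = 3 each), which was 1.55-fold lower in PHZ (log2 fold change -0.63, SE 0.11, 95% interval -0.90 to -0.37, edgeR adjusted p = 0.0226).

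Pleckstrin and the platelet tubulin are proteins of the cell body. Plek encodes pleckstrin, the main substrate of protein kinase C in activated platelets. It had 79.0, 86.4 and 92.4 CPM in PHZ cells, against 136.1, 111.5 and 135.1 CPM in PBS cells. All PHZ libraries were below the lowest PBS library. Plek averaged 85.9 ± 6.74 CPM in PHZ cells and 127.5 ± 13.9 CPM in PBS cells (SD, n = 3 each), which was 1.48-fold lower in PHZ (log2 fold change -0.57, SE 0.13, 95% interval -0.89 to -0.25, edgeR adjusted p = 0.0409). Tubb1, the beta-tubulin isotype of the platelet marginal band, was represented by 1 additional locus. That locus had 4.46, 5.87 and 4.75 CPM in PHZ cells, against 8.57, 5.01 and 5.70 CPM in PBS cells. The groups overlapped, and PBS replicate 1 was the high library (log2 fold change -0.35, SE 0.29, edgeR adjusted p = 0.426, and -0.09 without that library). The authors' deposited table marks none of the listed genes of the set, nor the 3 loci, as changed. The score that the authors named Probability was 0.994 for Plek, 0.985 for Thbs1 and 0.985 for Ppbp. It was 0.533 to 0.945 for the other genes and loci, and Gp1bb had no score. How the authors set their marks was not examined.

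**Figure D2:**
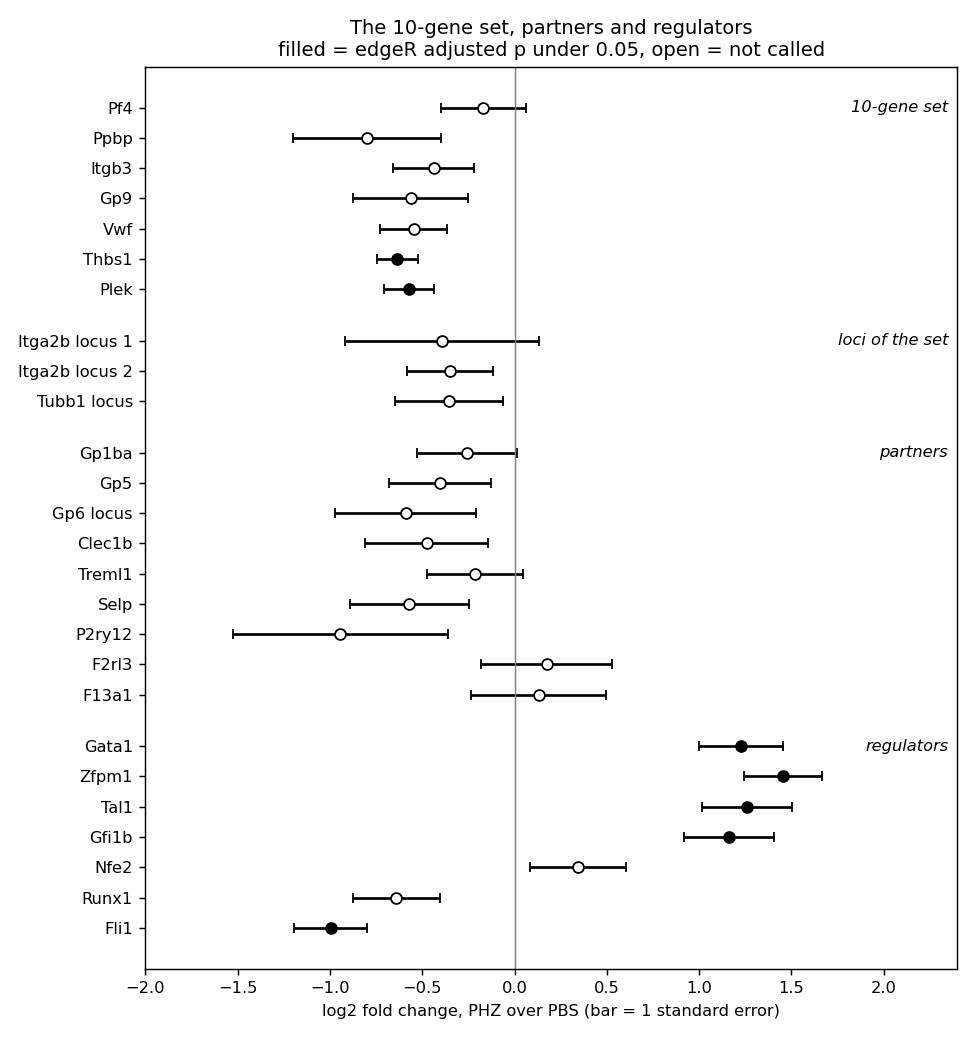
Log2 fold change of PHZ over PBS, with a bar of 1 standard error to each side, for the tested genes of the set, the loci matched to it, and their partners and regulators. Filled points are called genes, among them Thbs1 at -0.63, Plek at -0.57, Gata1 at 1.23 and Fli1 at -0.996.

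By FPKM, which allows genes to be set beside each other, the order of levels was led by Pf4 in PHZ cells and by Plek in PBS cells. In PHZ cells Pf4 averaged 59.3 ± 4.94 FPKM and Plek 52.0 ± 4.83 FPKM (SD, n = 3 each), and their ranges overlapped. Ppbp and Thbs1 came next and overlapped each other, at 28.6 ± 10.9 and 23.2 ± 3.24 FPKM. Itgb3 and the second Itga2b locus then overlapped, at 12.4 ± 3.15 and 11.3 ± 1.20 FPKM, followed by Gp9 at 6.51 ± 1.44 and Vwf at 5.34 ± 0.77 FPKM, which also overlapped. The Tubb1 locus was last among those listed in every library, at 2.92 ± 0.14 FPKM. In PBS cells Plek averaged 80.0 ± 7.83, Pf4 70.1 ± 19.8, Ppbp 53.1 ± 16.2 and Thbs1 37.8 ± 3.32 FPKM (SD, n = 3 each), each overlapping the next in that order. Itgb3, the second Itga2b locus, Gp9 and Vwf followed in the same order as in PHZ cells. The 8 listed genes together took 0.0264% to 0.0316% of the counts in PHZ libraries, against 0.0423% to 0.0508% in PBS libraries, and Plek and Thbs1 made up 67.6% to 69.0% of those counts in PHZ libraries and 67.3% to 74.8% in PBS libraries.

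The genes of the set tended to be high and low in the same libraries. Among the 10 tested genes and loci, PBS replicate 1 held the highest CPM for 8 and PHZ replicate 1 the lowest for 7. Over the 45 pairs of these 10, the Pearson correlation of log2 CPM over the 6 libraries was above 0 for 42, with a median of 0.656. With each group centred on its own mean the median was 0.406. The points share the treatment, the cell sort and the depth of each library, so these values only describe the 6 libraries. Ppbp and Gp9 were most alike (0.966), then Vwf and Plek (0.952). Pf4, the second Itga2b locus and the Tubb1 locus were alike at 0.923 to 0.938. The first Itga2b locus stood apart from Pf4 at -0.457. Reads were divided between the 2 Itga2b loci by the authors' estimate, so every pair that holds either locus depends on that division.

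The 10 other genes most like the mean pattern of the set were sought by Pearson correlation over the 6 libraries. The candidates were 8721 genes whose average log2 CPM reached 2, without additional loci and placeholder symbols. The top of so many correlations over 6 libraries is high by selection, so these values show no link to the set. They were Cggbp1 (0.986), Hdac8, Cstf2t, Timp3, Irf7, Actr8, Ramp1, Dennd6a, Serpine2 and B2m (0.943). Among them Irf7, a transcription factor of the interferon response, was called lower in PHZ (edgeR adjusted p = 0.039), and the others were not called.

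Genes of platelet function outside the set were counted in 5 lists. Of 133 tested genes, 6 were called higher and 16 lower in PHZ, 111 had an estimate below 0, and their median log2 fold change was -0.49, against -0.04 over all tested genes. Over all tested genes the shares were 8.99% called higher, 4.17% called lower and 52.4% with an estimate below 0. Of all called genes 68.3% were higher in PHZ. With the same test that share was 64.3% under RLE scaling and 58.7% under upper-quartile scaling, and it was 55.1% with DESeq2, which differs in both test and scaling. The authors' deposited table marks more genes lower in PHZ (1183) than higher (546). The direction in which most called genes move thus depends on the method.

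**Figure D3:**
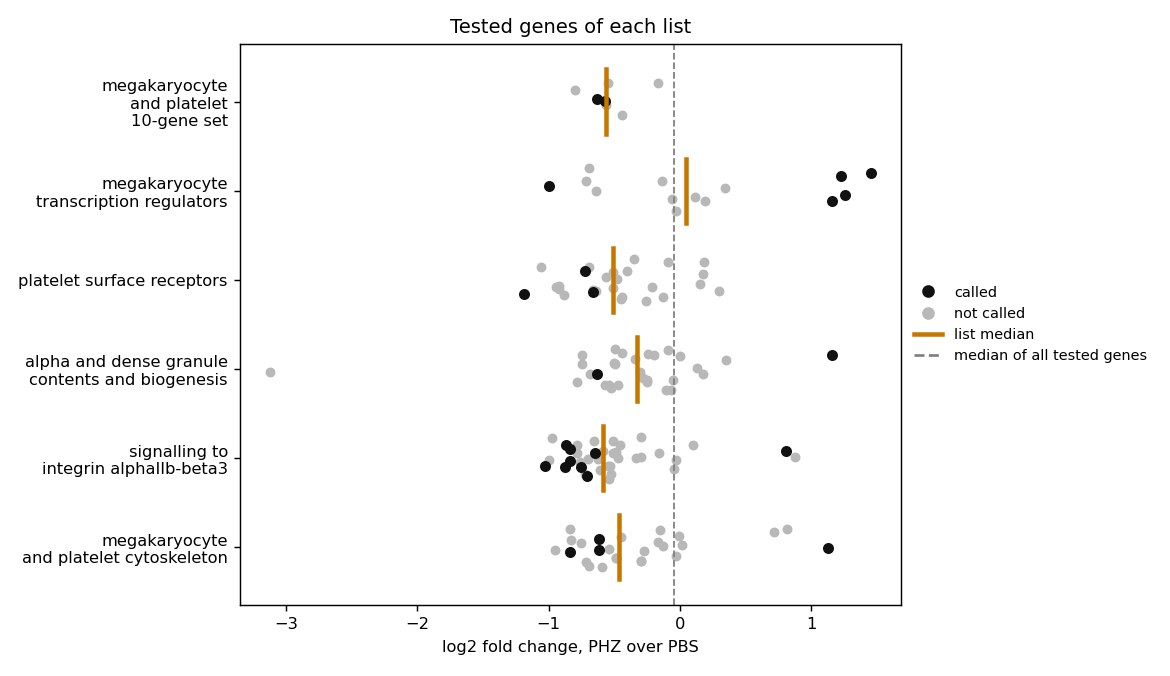
Log2 fold change of PHZ over PBS for each tested gene of the set and of the 5 lists (points, black where called), with the median of each list (orange bar) and of all tested genes (dashed line). The medians of the set and of the signalling list lie at -0.56 and -0.58, and that of the transcription regulators at 0.04.

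The transcription regulators split. Of 14 tested, 4 rose in PHZ cells and 1 fell, against 8.99% called higher and 4.17% called lower over all tested genes. Zfpm1, the GATA1 cofactor FOG1, rose with a log2 fold change of 1.45 (SE 0.21, edgeR adjusted p = 0.019). Tal1, Gata1 and Gfi1b, which red cell precursors also use, rose by 1.26, 1.23 and 1.16 (adjusted p = 0.027, 0.025 and 0.032). Gata1 had 178.1, 308.5 and 209.7 CPM in PHZ cells, against 110.3, 89.9 and 97.2 CPM in PBS cells, with no overlap. Fli1, an ETS factor of megakaryocytes, endothelium and other blood cells, fell, with 69.9, 49.7 and 73.1 CPM in PHZ cells, against 106.9, 147.7 and 129.9 CPM in PBS cells (log2 fold change -0.996, SE 0.20, edgeR adjusted p = 0.029). Nfe2 (0.35, adjusted p = 0.380) and Runx1 (-0.64, adjusted p = 0.108) did not pass the test. In the same libraries 6 of 12 erythroid markers rose (Car1, Tfrc, Klf1, Rhag, Car2 and Epb42) and none fell. All PHZ libraries were above all PBS libraries for 9 of the 12. Over all tested genes the groups did not overlap for 41.7% in either direction. All PHZ libraries were below for 19.2% of all tested genes and above for the remainder of that 41.7%. The erythroid sum was 67388 to 194185 CPM in PHZ libraries, against 73207 to 158509 CPM in PBS libraries. Without the globin gene Hba1, which made up most of it, the sum was 14285 to 24189 CPM in PHZ libraries, against 7571 to 11088 CPM in PBS libraries, with no overlap. Its part in the regulator values was not tested.

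Of 27 tested surface receptors of platelets, 3 fell and none rose, against 4.17% called lower and 8.99% called higher over all tested genes. The share called in either direction was near the 13.2% of all tested genes. Of the 27, 23 had an estimate below 0, against 52.4% of all tested genes. All PHZ libraries were below all PBS libraries for 9 of the 27, against 19.2% of all tested genes. Cd9, the tetraspanin whose gene neighbours Vwf, had 67.8, 62.9 and 67.5 CPM in PHZ cells, against 117.2, 105.8 and 104.0 CPM in PBS cells (log2 fold change -0.72, SE 0.11, edgeR adjusted p = 0.021). Pecam1, an adhesion molecule of platelets, endothelium and leukocytes, fell by 1.19 on the log2 scale (adjusted p = 0.023), and Fcer1g, the signalling chain of the collagen receptor and of Fc receptors, fell by 0.66 (adjusted p = 0.049). Treml1, Clec1b and P2ry12 were not called. Treml1 had a log2 fold change of -0.21 (SE 0.26, edgeR adjusted p = 0.588), Clec1b, the podoplanin receptor, of -0.48 (SE 0.33, adjusted p = 0.348), and P2ry12, the ADP receptor, of -0.94 (SE 0.58, adjusted p = 0.292). P2ry12 had 4.27, 2.498 and 3.22 CPM in PHZ cells, against 11.97, 2.504 and 4.78 CPM in PBS cells, so PBS replicate 1 was the high library. The thrombin receptor F2rl3 (0.17), P-selectin Selp (-0.57) and loci matched to Gp6, the collagen receptor (-0.59), to integrin alpha-2 (0.45) and to integrin alpha-V (-0.72 and -0.44) also missed the threshold, with edgeR adjusted p-values of 0.108 to 0.756.

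Among 30 tested genes of granule contents and biogenesis, 1 rose (Gfi1b, which is also among the regulators) and 1 fell. Over all tested genes 13.2% were called, 8.99% higher and 4.17% lower, so the share called in this list was below that. The gene that fell was Rab27a, a GTPase of granule secretion in platelets and leukocytes (log2 fold change -0.63, SE 0.16, edgeR adjusted p = 0.046). F13a1, the A subunit of clotting factor XIII, had 70.4, 37.3 and 30.1 CPM in PHZ cells, against 29.7, 43.1 and 53.3 CPM in PBS cells, which overlapped (log2 fold change 0.13, SE 0.37, edgeR adjusted p = 0.825). Loci matched to Mmrn1, an alpha granule protein that binds factor V, gave -1.74 (SE 1.23) and 0.03 (SE 0.26), and loci matched to Nbeal2, needed for alpha granule formation, gave -0.89 (SE 0.41) and -1.11 (SE 1.32), none of them called. The first Mmrn1 locus and the second Nbeal2 locus were not listed in PHZ replicate 2 and entered the fit as 0.

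Of 37 tested genes of signalling to integrin alphaIIb-beta3, 8 fell and 1 rose, against 4.17% called lower and 8.99% called higher over all tested genes. All PHZ libraries were below all PBS libraries for 25 of the 37, as they were for 19.2% of all tested genes. Prkcb, a protein kinase C isoform, had the lowest called estimate (log2 fold change -1.03, SE 0.19, edgeR adjusted p = 0.025), with 97.6, 67.6 and 106.1 CPM in PHZ cells, against 199.5, 175.0 and 178.1 CPM in PBS cells. The kinase Syk (-0.84), its target Plcg2 (-0.88) and the exchange factors Vav1 (-0.76) and Vav3 (-0.87) also fell, at edgeR adjusted p-values of 0.025 to 0.041. Rasgrp2, the exchange factor that activates Rap1, fell by 0.84 on the log2 scale (adjusted p = 0.034), and the adaptor Skap2 by 0.65 (adjusted p = 0.030). Ptgs1, the cyclooxygenase that platelets use to make thromboxane, fell by 0.71 (adjusted p = 0.024). Mastl, a kinase of mitosis, rose by 0.81 (adjusted p = 0.035). The integrin activators talin Tln1 (-0.30, adjusted p = 0.260) and kindlin-3 Fermt3 (-0.03, adjusted p = 0.869) did not pass the test. Syk, Plcg2, Vav1 and Prkcb also act in B cells and other leukocytes.

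Of 26 tested genes of the cytoskeleton of megakaryocytes and platelets, 3 fell and 1 rose. Over all tested genes 4.17% were called lower and 8.99% higher. The share called in either direction was near the 13.2% of all tested genes. Of the 26, 22 had an estimate below 0, against 52.4% of all tested genes. All PHZ libraries were below all PBS libraries for 14 of the 26, against 19.2% of all tested genes. Bin2 (-0.61), Was (-0.62) and Wipf1 (-0.84), which act on membrane curvature and actin branching, fell at edgeR adjusted p-values of 0.028, 0.036 and 0.048. Sptb, the beta-spectrin of red cells, rose by 1.13 (adjusted p = 0.027). Non-muscle myosin Myh9 had 871.8, 276.4 and 836.7 CPM in PHZ cells, against 1114.6, 1107.2 and 977.8 CPM in PBS cells, and PHZ replicate 2 was the low library (log2 fold change -0.69, SE 0.42, edgeR adjusted p = 0.283). Among paralogs of the set, the widely expressed tubulins Tubb5 and Tubb4b rose by 0.88 and 0.98 on the log2 scale (edgeR adjusted p = 0.028 and 0.030). Plek2, the paralog of Plek that red cell precursors use, had 51.6, 104.3 and 83.2 CPM in PHZ cells, against 49.9, 37.8 and 42.3 CPM in PBS cells (log2 fold change 0.88, SE 0.27, adjusted p = 0.072). The groups of Plek2 did not overlap, with the PHZ values above the PBS values, while those of Plek lay the other way round. The integrins related to the set, Itgb1, Itgb2, Itgb5, Itgb7, Itga4, Itga5, Itgam and Itgal, were not called, with log2 fold changes of -1.04 to 0.25.

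Several marker lists of other cell types also had lower sums in PHZ libraries. For the counts of called markers, the shares over all tested genes were 4.17% called lower and 8.99% called higher. The endothelial markers, of which 10 of 15 were tested, all had lower estimates and 2 fell (Tie1 and Kdr). The sum over the 14 listed markers was 46.1 to 70.3 CPM in PHZ libraries, against 226.7 CPM in PBS replicate 1 and 86.5 to 90.7 CPM in the other PBS libraries. Cells of the endothelium make Vwf, and their part in its values was not tested. The 14 neutrophil markers summed to 5742 to 12059 CPM in PHZ libraries, against 12804 to 26879 CPM in PBS libraries, with no call. The 16 monocyte and macrophage markers summed to 10036 to 14513 CPM in PHZ libraries, against 14579 to 15503 CPM in PBS libraries, with no call. Lysozyme Lyz2 made up most of that sum, and the other 15 summed to 1662 to 2224 CPM in PHZ libraries, against 4445 CPM in PBS replicate 1 and 1651 to 1834 CPM in the other PBS libraries, which overlapped. Of 12 tested lymphoid markers 9 fell, and their sum was 196.2 to 236.2 CPM in PHZ libraries, against 499.2 to 676.1 CPM in PBS libraries. The 10 mast cell and basophil markers summed to 6244 to 10093 CPM in PHZ libraries, against 10934 to 14978 CPM in PBS libraries, with no call. Prg2 and Epx, which eosinophils also express, made up most of that sum, and without them it was 442 to 729 CPM in PHZ libraries, against 708 to 1242 CPM in PBS libraries, which overlapped. Of 8 tested stem and progenitor markers 2 fell (Procr and Thy1). Among the endothelial markers, Cdh5, Robo4, Sele and Sox17 were not listed in at least 1 library, and among the stromal markers Col1a2, Dcn, Pdgfra, Ibsp and Adipoq were. The part of these cells in the lower Thbs1 and Plek was not tested.

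**Figure D4:**
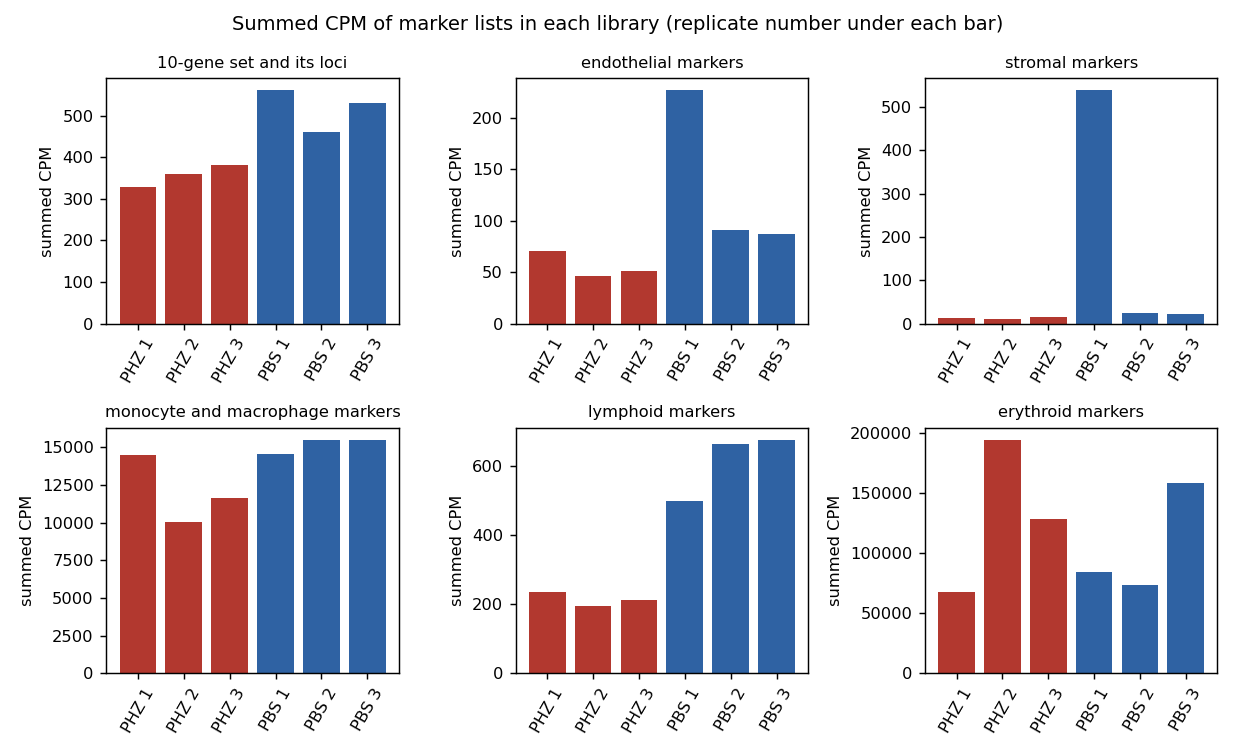
Summed CPM of the 10-gene set with its loci and of marker lists of other cell types in each library (bars from 0, linear axis of its own in each panel), with PHZ libraries left of PBS libraries. The stromal sum of PBS replicate 1, at 539 CPM, lies far from the other libraries, and the set sums to 328.1 to 381.5 CPM in PHZ libraries and 461.4 to 561.9 CPM in PBS libraries.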

How the data were processed

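The authors deposited for each rat, per the file headers, an expected count per gene (an estimate that need not be whole) and an FPKM value. The submitters' processing notes list the build rn6 and the tools RSEM, HISAT and GATK, whose roles and versions were not given in the sources used here. The authors' deposited comparison gives a score named Probability, group means of FPKM and the log2 ratio of these means (PHZ over PBS). A gene not listed in a library was set to 0.

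Expected counts were rounded and scaled by TMM, filtered with filterByExpr and tested with the quasi-likelihood test of edgeR 4.0.16 (R 4.3.3; robust glmQLFit, then glmQLFTest). The model held treatment alone, and p-values were adjusted over 13547 genes by Benjamini-Hochberg. CPM is scaled by TMM. The standard error is |log2 fold change| divided by √F, and intervals are 95%. A count of 3 in a library, 0.142 to 0.230 CPM, is the limit a count of 0 allows, for counting error only. With 3 rats a group each gene has 4 residual degrees of freedom, and the biological coefficient of variation was 35.2%. The script was tested on simulated data. Replicates were separate rats, and between replicates counts differed by far more than sampling noise (chi-square per degree of freedom 48.3 to 177), so none were merged.

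The genes of the set and all lists were chosen with earlier results of these data known. Named genes were the whole set, up to 10 called genes per list by smallest p, fixed partners and regulators, and the 10 genes most like the set's mean standardised log2 CPM. A result that this rule takes is not reported here. Paralogs and called markers named beside a count complete that count and were picked once values had been seen. Names of genes and neighbours came from the authors' table and a RefSeq table of assembly GRCr8, which held 13332 of 13411 gene IDs. DESeq2 1.42.0, limma 3.58.1 on log2(FPKM + 1) and log2(FPKM + 0.1), upper-quartile and RLE scaling, other filters, globin genes left out, sex, the replicate number as a block and leaving out libraries were alternatives, and adding the counts of Gp1bb and Septin5 together, and marker sums without Prg2 and Epx, Lyz2 or Hba1, were chosen after seeing the data.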

Additional observations from a re-analysis of the deposited data

How the results depend on the processing

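The number of called genes (1783, of which 1218 higher and 565 lower in PHZ) was 3476 with DESeq2 (1914 higher, 1562 lower) and 928 with sex as labelled in the fit (686 higher, 242 lower). It was 0 with the replicate number as a block, by edgeR, where 4641 genes had an unadjusted p under 0.05. Without the 3 libraries that go against their sex label, PBS replicate 3 stood alone against PHZ replicates 1 and 2, too few to read calls from. Leaving out 1 library gave 0 to 1744 called genes, 0 to 1213 higher and 0 to 720 lower. In the 5 lists of platelet function, the 6 genes called higher were 3 with sex, 0 with the block, and 0 to 8 without 1 library. The 16 called lower were 46 with DESeq2, 7 with sex, 0 with the block, and 0 to 18 without 1 library. The numbers were not taken as pairs because the labels do not say that a number marks shared rats or days. Same-numbered PHZ and PBS libraries deviated together with correlations of 0.213, 0.057 and 0.0045, against -0.166 to 0.154 for differently numbered libraries. These ranges overlap and cannot decide whether a number marks a pair. With the replicate block, Thbs1 had a log2 fold change of -0.63 (edgeR adjusted p = 0.063) and Plek of -0.57 (adjusted p = 0.076), both past the threshold without it. Plek was also not called without a filter on low counts (-0.55, edgeR adjusted p = 0.053) or with sex (-0.56, adjusted p = 0.064). Without the 3 libraries the log2 fold changes were -0.61 for Thbs1 and -0.71 for Plek. DESeq2 called Vwf (-0.56), as the only 1 of 18 alternatives. Leaving out 1 library gave -0.65 to -0.61 for Thbs1, -0.66 to -0.51 for Plek, -0.33 to 0.0477 for Pf4 and -0.40 to 0.00425 for Gp1ba. Pf4 turned to 0.0477 without PBS replicate 1 and Gp1ba to 0.00425 without PHZ replicate 1, neither called. The cause of these changes was not tested, beyond fewer libraries in the fits that leave some out. Gp1bb, with counts in 1 library, could not be tested, and no alternative changed the depth.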
